A study of Mus musculus with 12 samples.

Results

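The mRNA levels of 10 genes that sense and export lipids in macrophages were followed through an LPS response: the nuclear receptors *Nr1h2*, *Nr1h3*, *Rxra*, *Pparg* and *Ppard*, the transporters *Abca1* and *Abcg1*, and *Apoe*, *Mylip* and *Lpcat3*. They were chosen by name, and all 10 were among the 12850 genes listed. The cells were thioglycollate-elicited peritoneal exudate cells (PECs), inflammatory cells washed from the peritoneum of C57BL/6 mice after a sterile irritant, from which peritoneal macrophages were cultured. WT mice were compared with *Zc3h12a* S513A/S513A (S513A) mice, a knock-in made with CRISPR/Cas9 in which a serine of the RNase Regnase-1 is replaced by alanine in every cell. Cells of each genotype were collected at 0 hr of LPS (100 ng/ml), at 4 hr and at 8 hr, with 2 libraries per group and 12 in all. The ages of the mice and whether the 2 libraries of a group came from separate mice were not given in the sources used here, so p values measure only the spread between these libraries.

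LXRα (*Nr1h3*) and LXRβ (*Nr1h2*) are nuclear receptors for oxysterols, and the PPARs are nuclear receptors for fatty acids and their derivatives. Both bind DNA as partners of RXR, of which RXRα (*Rxra*) is a major form in macrophages. When cholesterol loads a macrophage, LXR-RXR is known to switch on genes that carry cholesterol out of the cell (*Abca1*, *Abcg1*, *Apoe*), that lower its uptake (*Mylip*) and that remodel membrane phospholipids (*Lpcat3*), while PPARγ is a regulator of lipid storage and of alternatively activated macrophages.

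Each library held between 9525979 and 12439960 reads over all genes of the table. At least 40 reads stood behind every value of the 10 genes, the lowest being *Pparg* in an S513A library at 8 hr. The treatment was visible in all libraries: the 5 LPS response genes checked (*Tnf*, *Il1b*, *Nos2*, *Acod1*, *Nfkbia*) were higher at 4 and at 8 hr, with summed levels of 199 to 311 CPM (reads scaled to library size) at 0 hr and 8721 CPM or more at 4 hr. The WT libraries at 4 hr differed most from each other (SD of the log2 difference over genes 0.40, against 0.16 to 0.34 in the other groups). The 6 macrophage markers were all present and summed to 16070 to 26290 CPM. Of the neutrophil markers only *S100a8* and *Mmp8* were listed, with *S100a9*, *Ly6g*, *Retnlg* and *Cxcr2* absent from the table; their sum went from 660 to 745 CPM at 0 hr to 361 to 573 CPM at 8 hr. The eosinophil sum, of *Siglecf* and *Ccr3* only, went from 15.3 to 18.5 CPM at 0 hr to 3.62 to 4.58 CPM at 8 hr. The 4 resident peritoneal macrophage markers summed to 48.5 to 86.7 CPM at 0 hr, 82.0 to 213 CPM at 4 hr and 122 to 146 CPM at 8 hr. Such sums mostly follow their highest gene: median CPM was 503 for *Mmp8* and 52.6 for *S100a8*, and 76.8 for *Prg4*, 19.2 for *Timd4*, 5.67 for *Icam2* and 1.89 for *Gata6*. The macrophage sum likewise mostly follows *Lyz2*, with a median of 16120 CPM, while the other macrophage markers ran from 83 (*Mertk*) to 1993 CPM (*Adgre1*). Listed B cell markers summed to at most 8.87 CPM, and T cell, mast cell, dendritic cell and mesothelial markers to at most 3.02, 3.84, 3.18 and 2.27 CPM. In such bulk samples, fewer cells of a type and less RNA per cell cannot be told apart, and the part of these markers in the results that follow was not tested.

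Compared per kilobase of exon, *Apoe* stood far above the other 9 genes at every time, at 2474 ± 492 CPM per kb (SD, n = 4) at 0 hr, 2109 ± 492 at 4 hr and 1720 ± 241 at 8 hr. Apolipoprotein E is the lipid carrier that macrophages secrete. At 0 hr the next levels were close together, from *Rxra* (25.0 CPM per kb) through *Abcg1* (22.8), *Nr1h2* (20.2), *Abca1* (18.5), *Lpcat3* (16.8) and *Nr1h3* (16.3) to *Pparg* (15.2), and the libraries of each overlapped those of the next. *Mylip* (5.47 CPM per kb) and *Ppard* (5.01) lay below all of these and overlapped each other. By 8 hr the order had changed: *Abca1* (35.7 CPM per kb) came next after *Apoe*, then *Nr1h3* (28.4), *Nr1h2* (25.8), *Lpcat3* (21.1) and *Rxra* (19.0), each overlapping its neighbour. A lower group of *Abcg1* (8.85 CPM per kb), *Ppard* (8.13) and *Mylip* (7.87) overlapped among themselves, and *Pparg* was alone at the bottom at 1.87 CPM per kb. *Pparg* thus went from a level that overlapped those of *Nr1h3* to the lowest of the 10.

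**Figure D1:**
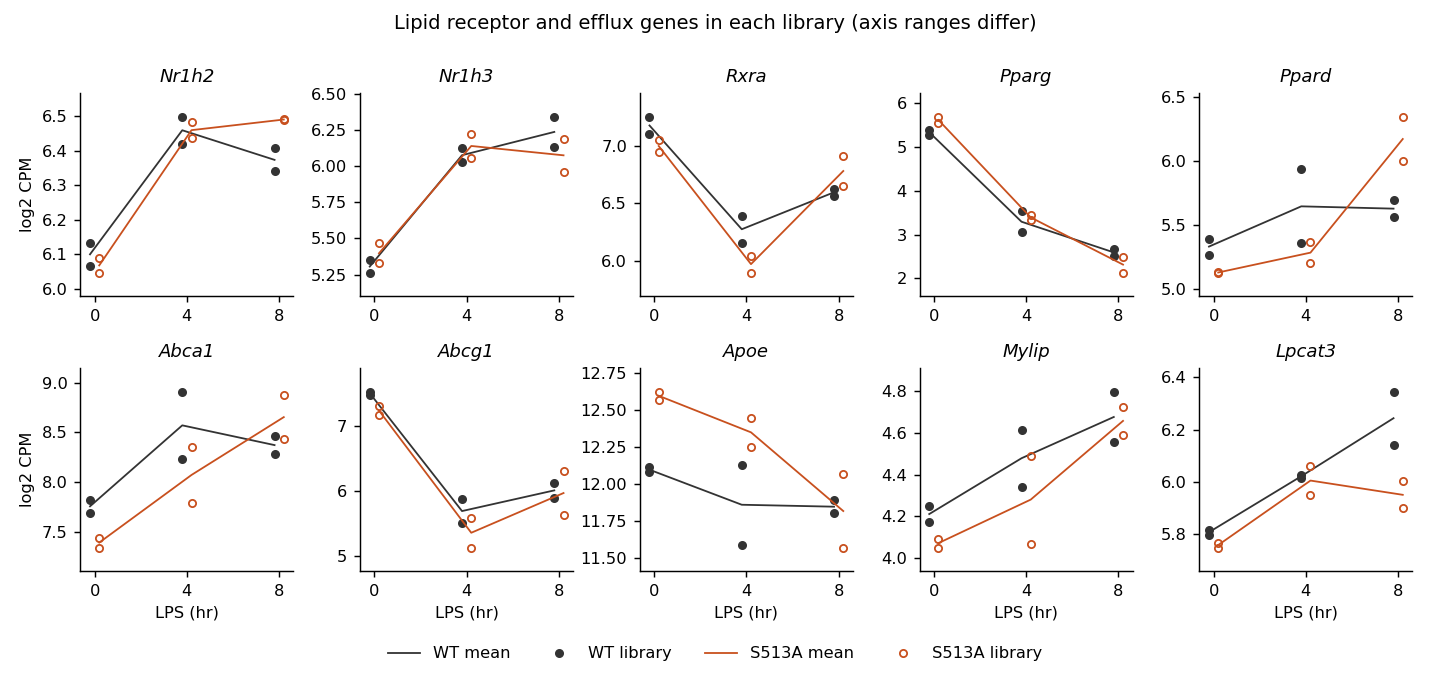
Log2 CPM of the 10 genes against hours of LPS, with a point per library, WT filled and S513A open, and a line through the mean of each genotype; the vertical ranges differ between panels. *Pparg* and *Abcg1* drop from 0 to 4 hr in both genotypes, *Nr1h3* and *Abca1* climb, and *Rxra* drops at 4 hr and partly comes back by 8 hr.

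Which of the 10 genes LPS moved was asked first, with both genotypes averaged (4 libraries a time point). At 4 hr, 4 were called higher, 3 lower and 3 not called (limma, Benjamini-Hochberg adjusted p under 0.05), while of the 11885 genes tested 29.1% were called higher and 26.7% lower. At 8 hr all 10 were called, 6 higher and 4 lower, against 24.5% higher and 21.6% lower of all genes tested. The median log2 fold change of the 10 was 0.23 at 4 hr and 0.33 at 8 hr, against 0.02 and -0.00 over all genes tested. Both comparisons use the same 0 hr libraries. Within WT, 3 rose and 3 fell at 4 hr (41.3% of all genes called) and 4 rose and 3 fell at 8 hr (34.3% called). Within S513A, 3 rose and 3 fell at 4 hr (43.2% called) and 5 rose and 3 fell at 8 hr (39.9% called).

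Of the LXR genes, *Nr1h3* (chr2:91184061-91202834, minus strand, GRCm38) rose and *Nr1h2* (chr7:44549616-44553951, minus strand) rose less. *Nr1h3* read 40.7 and 38.4 CPM in WT and 40.2 and 44.3 CPM in S513A at 0 hr. At 4 hr it read 69.7 and 65.1 CPM in WT and 74.5 and 66.6 CPM in S513A, and at 8 hr 70.02 and 81.0 CPM in WT and 62.3 and 72.8 CPM in S513A. All 8 treated libraries were above all 4 untreated ones, and those of 4 and 8 hr overlapped. The change was 1.69-fold at 4 hr (log2 0.75, SE 0.09, adjusted p = 2.82e-05) and 1.74-fold at 8 hr (log2 0.80, SE 0.09, adjusted p = 2.36e-05). The spans of the small annotated genes *Gm13783* and *Gm23390* overlap that of *Nr1h3*. The counting took no account of strand, and whether these genes share exons with *Nr1h3* was not examined.

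*Nr1h2*, the more widely expressed LXR, varied least of the 10 genes between libraries at 4 and 8 hr (SD of log2 CPM 0.04 and 0.07, n = 4). It read 70.2 and 67.1 CPM in WT and 66.1 and 68.1 CPM in S513A at 0 hr, and 90.4, 85.6, 89.4 and 86.6 CPM in the same order at 4 hr. At 8 hr it read 84.8 and 81.0 CPM in WT and 90.0 and 89.8 CPM in S513A, again above every untreated library. The change was 1.30-fold at 4 hr (log2 0.38, SE 0.06, adjusted p = 0.000550) and 1.27-fold at 8 hr (log2 0.35, SE 0.06, adjusted p = 0.00121). Quantile normalization made it 0.16 (adjusted p = 0.0637) at 4 hr and 0.20 (adjusted p = 0.0312) at 8 hr.

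*Rxra* (chr2:27676440-27762957, plus strand), the shared partner, fell at 4 hr and stood between the other levels at 8 hr. In WT it read 153 and 138 CPM at 0 hr, 71.3 and 84.1 CPM at 4 hr and 99.0 and 94.8 CPM at 8 hr. In S513A it read 124 and 133 CPM at 0 hr, 66.0 and 59.5 CPM at 4 hr and 121 and 100.4 CPM at 8 hr. No library of a time point overlapped another time point's, although the highest at 8 hr (121 CPM) lay close under the lowest at 0 hr (124 CPM). *Rxra* was 1.96-fold lower at 4 hr (log2 -0.97, SE 0.09, adjusted p = 4.99e-06) and 1.32-fold lower at 8 hr (log2 -0.40, SE 0.09, adjusted p = 0.00395). Within WT the 8 hr value was -0.58 (adjusted p = 0.00499), and within S513A it was -0.22 and not called (adjusted p = 0.198). From 4 to 8 hr it rose 1.48-fold (log2 0.57, SE 0.09, adjusted p = 0.00116). With quantile normalization the averaged value at 8 hr was -0.64 (adjusted p = 0.000179), and *Rxra* was called within each genotype.

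The PPAR genes went opposite ways at 8 hr with both genotypes averaged. *Pparg* (chr6:115360951-115490399, plus strand), which encodes PPARγ, had the largest change of the 10 genes at both times. It read 38.9 and 42.0 CPM in WT and 51.7 and 46.5 CPM in S513A at 0 hr. At 4 hr it read 11.6 and 8.32 CPM in WT and 11.0 and 10.1 CPM in S513A, and at 8 hr 5.74 and 6.34 CPM in WT and 5.65 and 4.38 CPM in S513A. The time points did not overlap, and each step went down: 4.39-fold lower at 4 hr (log2 -2.13, SE 0.13, adjusted p = 1.58e-07), 8.13-fold lower at 8 hr (log2 -3.02, SE 0.13, adjusted p = 1.43e-08) and 1.85-fold lower from 4 to 8 hr (log2 -0.89, SE 0.13, adjusted p = 0.000668). The span of the gene *Gm44079* overlaps that of *Pparg* in the annotation, and whether they share exons was not examined.

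*Ppard* (chr17:28232700-28301474, plus strand), which encodes PPARδ, a regulator of fatty acid oxidation, was higher at 8 hr. In WT it read 42.1 and 38.6 CPM at 0 hr, 41.0 and 61.3 CPM at 4 hr and 51.9 and 47.2 CPM at 8 hr. In S513A it read 35.0 and 35.0 CPM at 0 hr, 41.2 and 36.9 CPM at 4 hr and 81.5 and 63.9 CPM at 8 hr. The libraries of 8 hr were above all of 0 hr, those of 4 hr overlapped both, and the S513A libraries at 8 hr were the highest of the 12. The change at 4 hr was not called (log2 0.24, SE 0.13, adjusted p = 0.143), and that at 8 hr was 1.59-fold (log2 0.67, SE 0.13, adjusted p = 0.00142). Within WT the 8 hr value was 0.30 and not called (limma, adjusted p = 0.232), and within S513A it was 1.04 (adjusted p = 0.00108). Without the first WT library at 4 hr, the value at 4 hr was 0.38 and was called (adjusted p = 0.00880).

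**Figure D2:**
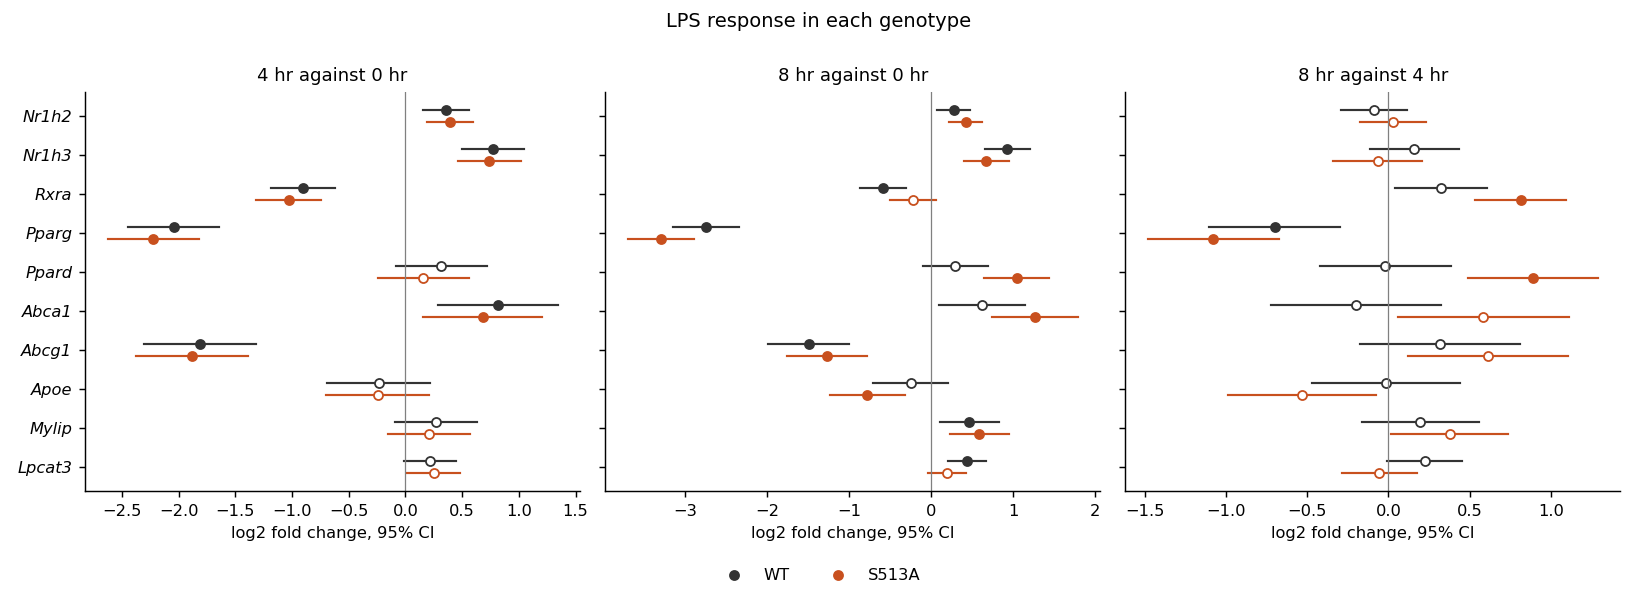
Log2 fold changes of the 10 genes after LPS in WT (dark) and S513A (orange) cells, with bars for the 95% confidence interval from limma; filled points passed an adjusted p of 0.05. *Pparg*, *Abcg1* and *Rxra* lie left of zero at 4 hr in both genotypes and *Nr1h2*, *Nr1h3* and *Abca1* right of it, and in the 8 hr panel *Ppard*, *Abca1* and *Apoe* are filled in S513A and open in WT, and *Rxra* and *Lpcat3* filled in WT and open in S513A.

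The cholesterol transporters also split. *Abca1* (chr4:53030787-53159895, minus strand) encodes the transporter that loads cholesterol onto lipid-poor apolipoproteins. In WT it read 226 and 206 CPM at 0 hr, 300.4 and 481 CPM at 4 hr and 352 and 311 CPM at 8 hr. In S513A it read 173 and 162 CPM at 0 hr, 326 and 222 CPM at 4 hr and 469.9 and 345 CPM at 8 hr. All libraries at 8 hr were above all at 0 hr, while the lowest at 4 hr, an S513A library, lay under the highest WT library at 0 hr. *Abca1* was 1.68-fold higher at 4 hr (log2 0.75, SE 0.17, adjusted p = 0.00299) and 1.92-fold higher at 8 hr (log2 0.94, SE 0.17, adjusted p = 0.000894). With quantile normalization the 4 hr value was 0.37 and was not called (adjusted p = 0.114).

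*Abca1* is a textbook LXR target, and its promoter in the mouse holds a DR4 element, the direct repeat with a spacer of 4 bases that LXR-RXR is known to bind. The letters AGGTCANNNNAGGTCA were searched on both strands, allowing 3 mismatches in the 12 fixed letters, over 300 bases of RefSeq promoter (GRCm38.p6; 250 before the start and 50 after it). Of 32851 promoters 21.9% hold such a match, and of 27025 genes 24.5% have it in at least 1 promoter, so such a match is common. Promoters were found for 9 of the 10 genes, 15 in all, and a match in 3 of these 9 genes. They are shown because they are the stretches nearest to this letter pattern. The letters AGGTCANAGGTCA (DR1, the spacing that PPAR-RXR is known to bind), which hold the same half-site and can overlap a DR4 match, were found with up to 3 mismatches in 24.6% of promoters, in 27.3% of genes and in 3 of the 9. In the lines that follow the half-sites are in capitals and the spacer in lower case, 5′ to 3′ on the strand that matched:
*Abca1* DR4, chr4:53159947-53159962, plus strand, 67 to 52 bases before the start, 3 mismatches: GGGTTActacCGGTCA
*Rxra* DR4, chr2:27709234-27709249, plus strand, at a downstream start, 3 mismatches: GTGGCAggaaAGGTCA
*Pparg* DR4, chr6:115362340-115362355, plus strand, at a downstream start, 3 mismatches: AGGTCAagaaGGGGCC
*Rxra* DR1, chr2:27709217-27709229, plus strand, at the same downstream start, 2 mismatches: TGGTCAtAGGCCA
*Apoe* DR1, chr7:19699204-19699216, minus strand, 28 to 16 bases before the start, 3 mismatches: GGGTCAcAAGGCA
*Lpcat3* DR1, chr6:124662977-124662989, minus strand, 127 to 115 bases before the start, 3 mismatches: AAGGCAaAGGTGA
Read on the strand of *Abca1* itself (minus, chr4:53159940-53159969), the stretch with its flanks is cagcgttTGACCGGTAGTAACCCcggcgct, the match in capitals. The genes with a match include some that rose (*Abca1*, *Lpcat3*) and some that fell (*Rxra*, *Pparg*, *Apoe*). A match is a description of letters, and binding was not measured here.

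*Abcg1* (chr17:31057675-31117988, plus strand) encodes the transporter that passes cholesterol to HDL particles, and it is likewise a known LXR target. It fell. In WT it read 179 and 185 CPM at 0 hr, 45.5 and 58.9 CPM at 4 hr and 59.4 and 70.1 CPM at 8 hr. In S513A it read 159 and 144 CPM at 0 hr, 48.1 and 35.0 CPM at 4 hr and 79.2 and 49.6 CPM at 8 hr. Every treated library was far under every untreated one, and the libraries of 4 and 8 hr overlapped. *Abcg1* was 3.60-fold lower at 4 hr (log2 -1.85, SE 0.16, adjusted p = 2.44e-06) and 2.61-fold lower at 8 hr (log2 -1.38, SE 0.16, adjusted p = 3.26e-05). The difference between 8 and 4 hr (log2 0.47, SE 0.16, adjusted p = 0.0524) was not called, but was called with quantile normalization (0.49, adjusted p = 0.0388) and without the second WT library at 4 hr, the first S513A library at 4 hr or the second S513A library at 8 hr (0.56, 0.58 and 0.63, adjusted p = 0.0310, 0.0329 and 0.00810). The span of the gene *Gm25447* overlaps that of *Abcg1*, and whether they share exons was not examined.

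*Apoe* (chr7:19696109-19699188, minus strand) was lower at 8 hr. In WT it read 4435 and 4333 CPM at 0 hr, 4487 and 3085 CPM at 4 hr and 3578 and 3799.7 CPM at 8 hr. In S513A it read 6317 and 6076 CPM at 0 hr, 4881 and 5585 CPM at 4 hr and 3045 and 4287 CPM at 8 hr. The libraries at 8 hr were all under those at 0 hr, the nearest being an S513A library at 4287 CPM under a WT library at 4333 CPM, and those at 4 hr spanned both. The change at 4 hr (log2 -0.24, SE 0.15, adjusted p = 0.184) was not called, and at 8 hr *Apoe* was 1.43-fold lower (log2 -0.51, SE 0.15, adjusted p = 0.0141). Without the first S513A library at 8 hr that value was -0.39 (adjusted p = 0.0531). Without the first WT library at 4 hr the value at 4 hr was -0.38 (adjusted p = 0.0335), and with quantile normalization -0.39 (adjusted p = 0.0284).

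*Mylip* (chr13:45389742-45412022, plus strand) encodes a ubiquitin ligase that lowers cholesterol uptake. It read 16.6 to 19.0 CPM at 0 hr, 16.8 to 24.5 CPM at 4 hr and 23.5 to 27.8 CPM at 8 hr over both genotypes. All libraries at 8 hr were above all at 0 hr, and those at 4 hr overlapped both. *Mylip* was 1.44-fold higher at 8 hr (log2 0.53, SE 0.11, adjusted p = 0.00331), and the 4 hr value of 0.24 (SE 0.11, adjusted p = 0.102) was called only without the second S513A library at 4 hr (0.34, adjusted p = 0.0256) among the alternatives run.

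*Lpcat3* (chr6:124663027-124704418, plus strand), the acyltransferase that puts polyunsaturated fatty acids into membrane phospholipids, read 53.7 to 56.3 CPM at 0 hr, 61.8 to 66.7 CPM at 4 hr and 59.6 to 81.3 CPM at 8 hr. Treated libraries lay above untreated ones at both times, the lowest being an S513A library at 8 hr. It was 1.17-fold higher at 4 hr (log2 0.23, SE 0.07, adjusted p = 0.0203) and 1.24-fold higher at 8 hr (log2 0.32, SE 0.07, adjusted p = 0.00490), at 0.44 within WT (adjusted p = 0.00797) and 0.19 within S513A (adjusted p = 0.166). Quantile normalization made the averaged values 0.06 (adjusted p = 0.501) and 0.19 (adjusted p = 0.0625), and leaving out any of 5 single libraries at 0 or 4 hr took the 4 hr adjusted p to between 0.0514 and 0.0677: either WT or either S513A library at 0 hr, or the first S513A library at 4 hr. The span of *Emg1* overlaps that of *Lpcat3*, and whether they share exons was not examined.

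Between 4 and 8 hr, 2 of the 10 genes were called higher (*Rxra*, *Ppard*) and 1 lower (*Pparg*), beside 12.8% higher and 12.8% lower of all genes tested. *Ppard* rose 1.35-fold (log2 0.44, SE 0.13, adjusted p = 0.0296). This call was lost without either WT library at 8 hr, the first WT library at 4 hr, the first S513A library at 8 hr or the second S513A library at 4 hr (0.29 to 0.47, adjusted p from 0.0595 to 0.105), and with a prior without a trend or the 0 hr libraries out of the fit (adjusted p = 0.0547 and 0.0758). *Apoe* and *Mylip*, not called over this interval (log2 -0.27 and 0.29, adjusted p = 0.207 and 0.0940), were called without the second WT library at 4 hr (-0.41, adjusted p = 0.0455) and without the first S513A library at 4 hr (0.39, adjusted p = 0.0316). Within WT alone only *Pparg* was called over this interval (14.2% of all genes called), and within S513A *Rxra*, *Ppard* and *Pparg* (18.3% called). The difference of *Ppard* between 8 and 4 hr was -0.02 in WT and 0.89 in S513A on the log2 scale (SE 0.18 for each). Whether these values differ was not tested, and the WT libraries at 4 hr were far apart (41.0 and 61.3 CPM).

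The shifts within related pairs were compared as ratios of CPM per kb, a measure that a change in library size cannot move. *Abcg1* over *Abca1* went from a ratio of 1.24 at 0 hr to 0.205 at 4 hr and 0.247 at 8 hr. *Ppard* over *Pparg* went from 0.331 at 0 hr to 1.71 at 4 hr and 4.28 at 8 hr. *Nr1h3* over *Nr1h2* went from 0.803 at 0 hr to 1.04 at 4 hr and 1.10 at 8 hr. So the lower member of each pair at 0 hr was the higher one at 8 hr in the mean. In log2 units, *Abcg1* over *Abca1* stood at 0.31 ± 0.09 (SD, n = 4) at 0 hr, -2.29 ± 0.16 at 4 hr and -2.02 ± 0.27 at 8 hr. *Ppard* over *Pparg* stood at -1.59 ± 0.30, 0.77 ± 0.51 and 2.099 ± 0.49, and *Nr1h3* over *Nr1h2* at -0.32 ± 0.08, 0.06 ± 0.06 and 0.14 ± 0.22.

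Every ratio differed between 0 hr and both later times without overlap of the libraries (exact permutation test over the 70 regroupings of 4 against 4 libraries, two-sided p = 0.0286, the smallest this design can give; adjusted p = 0.0367 over 9 tests). Over the same test *Ppard* over *Pparg* also differed between 8 and 4 hr (log2 difference 1.32, exact permutation p = 0.0286, adjusted p = 0.0367), a call lost with a further pseudocount of 1 CPM (1.21, exact permutation, adjusted p = 0.0735). *Abcg1* over *Abca1* (0.27, exact permutation p = 0.114, adjusted p = 0.129) and *Nr1h3* over *Nr1h2* (0.08, exact permutation p = 0.629, adjusted p = 0.629) did not pass between these times.

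**Figure D3:**
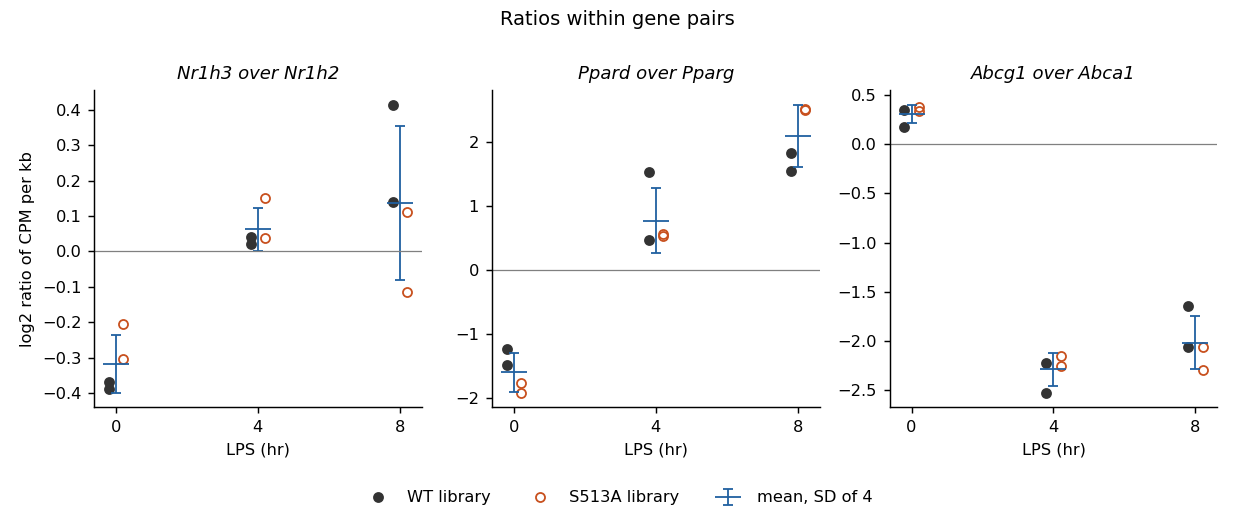
Log2 ratio of CPM per kb of exon within 3 gene pairs against hours of LPS, with a point per library and the mean with its SD over the 4 libraries of a time point. *Abcg1* over *Abca1* goes from 0.31 to -2.29 at 4 hr, and *Ppard* over *Pparg* from -1.59 to 2.099 at 8 hr; the horizontal line marks equal levels, and the vertical ranges differ between panels.

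The study's own comparison, S513A against WT, called none of the 10 genes at any time. At 0 hr 0.0337% of all genes tested were called, at 4 hr 0.0168%, at 8 hr 0.0337% and for the mean of the 3 time points 0.0673%. At an unadjusted p under 0.05 there was 1 of the 10 genes at 0 hr, 2 at 4 hr, 2 at 8 hr and 1 for the mean, beside 7.98%, 7.01%, 12.5% and 6.71% of all genes tested, so these numbers are near the background. *Apoe* was the gene with the smallest p for the mean (log2 0.32, 95% confidence interval 0.06 to 0.58, unadjusted p = 0.0220, adjusted p = 0.672). Its S513A libraries were above the WT ones at 0 hr (log2 0.50) and at 4 hr (0.49), and overlapped them at 8 hr (-0.03). *Rxra* was at -0.30 at 4 hr (unadjusted p = 0.0369, adjusted p = 0.622), *Ppard* at 0.54 at 8 hr (unadjusted p = 0.0126, adjusted p = 0.395) and *Lpcat3* at -0.29 at 8 hr (unadjusted p = 0.0173, adjusted p = 0.395).

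A p that misses the threshold does not show that the genotypes are alike, and the intervals give what the data allow. For the mean of the time points they ran from -0.09 to 0.15 for *Nr1h2*, from -0.16 to 0.16 for *Nr1h3*, from -0.26 to 0.06 for *Rxra*, from -0.20 to 0.27 for *Pparg* and from -0.24 to 0.22 for *Ppard*. They ran from -0.50 to 0.11 for *Abca1*, from -0.50 to 0.07 for *Abcg1*, from -0.33 to 0.09 for *Mylip* and from -0.25 to 0.01 for *Lpcat3*. The interval of *Nr1h2* was thus the narrowest of the 10 and those of the transporters were among the widest. At 0 hr *Abca1* was lower in both S513A libraries than in both WT libraries (log2 -0.37, 95% confidence interval -0.89 to 0.16, adjusted p = 0.603). So were *Rxra*, *Ppard*, *Abcg1*, *Mylip* and *Lpcat3*, while *Pparg* and *Apoe* were higher in both, none of them called. With 2 libraries against 2, genes often separate by chance. The share of all genes that did so was not counted, so no genotype pattern can be read from this. *Abca1* was called at 0 hr when the 4 libraries of that time were fitted alone, a fit that called 693 genes in all, against 4 in the main fit.

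**Figure D4:**
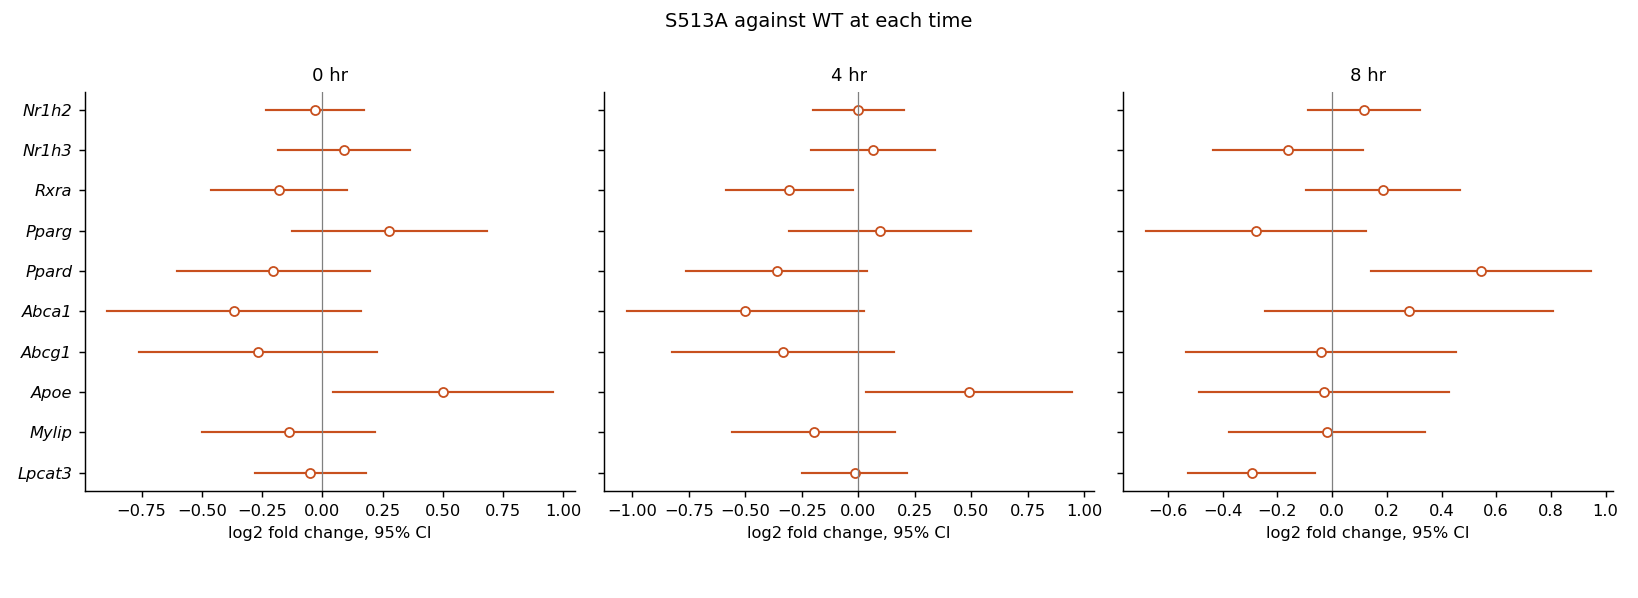
Log2 fold changes of S513A against WT for the 10 genes at each time, with bars for the 95% confidence interval from limma and open points where the adjusted p was above 0.05; the horizontal ranges differ between panels. All points are open; *Apoe* lies to the right of zero at 0 and 4 hr and *Ppard* at 8 hr.

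Whether the LPS response itself differed between genotypes was tested as an interaction, which called none of the 10 genes and 0% of all genes tested at 4 hr, and 0% at 8 hr. The count over all genes at 8 hr did not stay at 0 without the second S513A library at 8 hr, though none of the 10 genes was called. That fit leaves 1 library in the group, so it cannot decide how many genes differ. Over all genes, 144 (1.21%) had an unadjusted p under 0.05 at 4 hr and 2405 (20.2%) at 8 hr. Among the 10 genes there were 0 and 1, not above these shares. That gene was *Ppard* at 8 hr, whose change was 0.30 in WT (adjusted p = 0.232) and 1.04 in S513A (adjusted p = 0.00108), a difference of 0.75 (95% confidence interval 0.18 to 1.31, unadjusted p = 0.0147, adjusted p = 0.197). *Abca1* was at 0.62 in WT (adjusted p = 0.0675) and 1.27 in S513A (adjusted p = 0.00179) at 8 hr, a difference of 0.65 (95% confidence interval -0.10 to 1.39, adjusted p = 0.285). *Pparg* was at -2.74 and -3.30, a difference of -0.56 (-1.13 to 0.01, adjusted p = 0.251), and *Apoe* at -0.25 and -0.78, a difference of -0.53 (-1.17 to 0.12, adjusted p = 0.303). *Rxra* and *Lpcat3* were the genes called in WT and not in S513A at 8 hr, and their interactions were not called either: 0.37 for *Rxra* (-0.03 to 0.76, adjusted p = 0.270) and -0.25 for *Lpcat3* (-0.57 to 0.08, adjusted p = 0.335). This split changed with quantile normalization, where *Rxra* was called in both genotypes and *Lpcat3* in neither.

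Genes whose log2 CPM followed a member most closely over the 12 libraries were found by Pearson's r. This is a description: the libraries share 3 time points, and any gene that moves with LPS is drawn in. For *Abca1* they were *Rrbp1* (r = 0.991), *Fignl2* (0.985) and *Dpysl2* (0.982), and for *Nr1h3* they included *Pilrb2* (0.983) and *Acot7* (0.982). For *Abcg1* they were *Tfeb* (0.992), a transcription factor of lysosomal genes, *Fbxl20* (0.988) and *Foxo3* (0.987), a forkhead transcription factor. For *Pparg* they were *Wsb2* (0.992), *Kctd12b* (0.989) and *Lrmp* (0.989). The mean log2 CPM of *Tfeb* went from 5.74 at 0 hr to 4.58 at 4 hr and 4.92 at 8 hr, beside 7.37, 5.53 and 5.99 for *Abcg1*. That of *Kctd12b* went from 4.99 to 2.90 and 1.82, beside 5.48, 3.34 and 2.45 for *Pparg*.

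The lists of related genes are counted beside 29.1% higher and 26.7% lower of all genes tested at 4 hr, and 24.5% and 21.6% at 8 hr, with median log2 changes over all genes of 0.02 and -0.00. Of 10 PPAR target genes tested, 8 were lower and 1 was higher at 4 hr, and 7 were lower and none higher at 8 hr, with median log2 changes of -0.55 and -0.65. *Fabp4*, the fatty acid binding protein that PPARγ is known to induce, read 435 to 584 CPM at 0 hr, 125 to 222 CPM at 4 hr and 55.8 to 130.7 CPM at 8 hr. Its change was -1.78 (SE 0.21, adjusted p = 3.20e-05) at 4 hr and -2.51 (SE 0.21, adjusted p = 2.77e-06) at 8 hr. *Angptl4*, a secreted inhibitor of lipoprotein lipase, went from 69 to 129 reads a library at 0 hr to 2 to 6 reads at 4 hr and 2 to 8 at 8 hr, and was called lower at both (adjusted p = 2.54e-06 and 3.72e-06). *Acadl*, of mitochondrial fatty acid oxidation, was the one called higher at 4 hr (0.23, SE 0.08, adjusted p = 0.0302) and was at 0.17 at 8 hr (adjusted p = 0.110).

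Of 12 other LXR target genes tested, none was higher and 4 were lower at 4 hr, and 2 were higher and 4 lower at 8 hr, with median log2 changes of -0.25 and -0.29. The share called lower is near that of all genes. *Scd1* and *Fasn*, of fatty acid desaturation and synthesis, were the ones higher at 8 hr, at 1.06 (SE 0.22, adjusted p = 0.00218) and 0.74 (SE 0.23, adjusted p = 0.0227), while at 4 hr they were at -0.05 and 0.52 (adjusted p = 0.874 and 0.0779). *Arl4c* was at -1.03 at 4 hr (SE 0.08, adjusted p = 1.37e-06) and -0.37 at 8 hr (adjusted p = 0.00337). *Mertk*, the receptor for apoptotic cells that is also on the macrophage marker list, was at -0.48 at 4 hr (adjusted p = 0.000775) and -0.20 at 8 hr (adjusted p = 0.0823). *Smpdl3a* and *Cd5l* were at -0.70 (adjusted p = 0.000696) and -0.78 (adjusted p = 0.00686) at 8 hr. From 4 to 8 hr *Arl4c* rose again by 0.66 (adjusted p = 0.000262).

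Of 13 partner receptors and cofactors tested, 1 was higher and 4 lower at 4 hr, and 2 were higher and none lower at 8 hr, with median log2 changes of -0.10 and -0.05. *Med1*, a Mediator subunit that nuclear receptors bind, was at 0.71 (SE 0.14, adjusted p = 0.00126) and 0.46 (adjusted p = 0.0194). *Rara*, a retinoic acid receptor that also pairs with RXR, was at -1.01 at 4 hr (SE 0.16, adjusted p = 0.000241) and *Ppargc1b*, a coactivator of mitochondrial genes, at -1.38 (SE 0.23, adjusted p = 0.000389). At 8 hr these were at -0.25 and -0.26 (adjusted p = 0.221 and 0.392). *Rarg* was at 0.26 at 8 hr (adjusted p = 0.0499).

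The enzymes that make and break LXR ligands moved in both directions: of 5 tested, 2 were higher and 2 lower at both times, with median log2 changes of -0.94 and -0.45. *Ch25h*, which makes 25-hydroxycholesterol, had 0 to 2 reads a library at 0 hr, 59 to 124 at 4 hr and 61 to 130 at 8 hr (adjusted p = 1.14e-07 and 1.72e-07). *Cyp7b1*, which breaks oxysterols down, had 1 to 6 reads at 0 hr, 14 to 25 at 4 hr and 13 to 26 at 8 hr (adjusted p = 0.000118 and 0.000279). *Cyp27a1*, which makes 27-hydroxycholesterol, went from 11.4 to 13.1 CPM at 0 hr to 2.96 to 4.97 CPM at 4 hr and 2.61 to 3.32 CPM at 8 hr, at -1.71 (SE 0.16, adjusted p = 4.14e-06) and -2.04 (SE 0.16, adjusted p = 1.28e-06). *Hsd3b7*, a further enzyme of oxysterol breakdown, was at -0.94 (SE 0.08, adjusted p = 3.06e-06) and -0.45 (adjusted p = 0.00102). No gene of these 4 lists was called between S513A and WT for the mean of the time points.

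**Figure D5:**
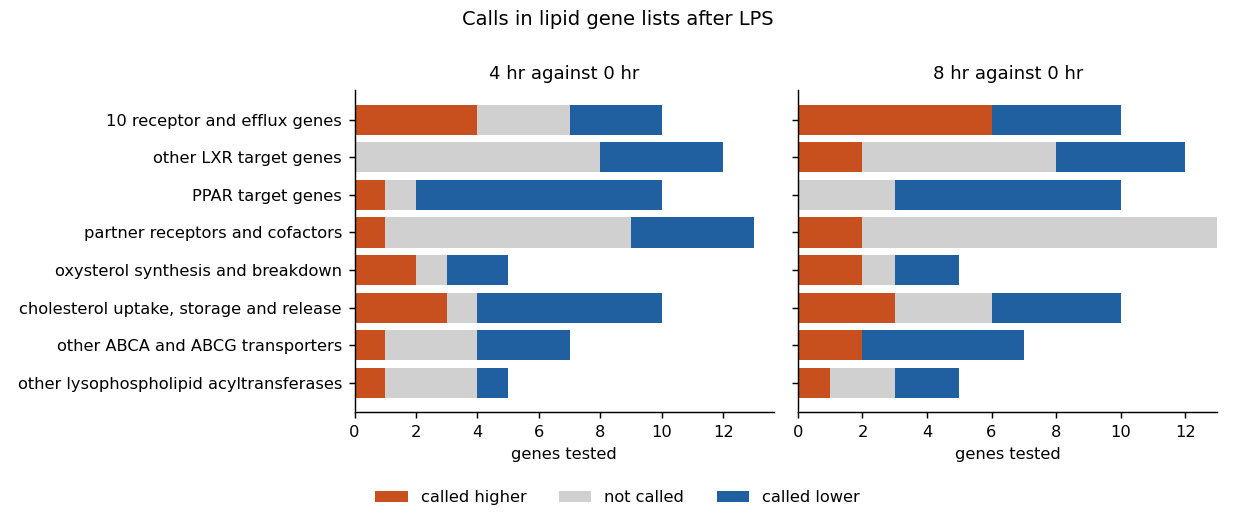
Number of tested genes called higher, not called and called lower at 4 hr and 8 hr of LPS (limma, both genotypes averaged) in the 10 receptor and efflux genes and in 7 lists of related genes. Lower calls fill 8 of 10 PPAR target genes at 4 hr, while the 10 genes themselves have 6 higher and 4 lower calls at 8 hr.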

How the data were processed

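PolyA RNA of the 12 libraries was sequenced by the authors, mapped on mm10 with HISAT2 (paired end, unstranded) and counted with featureCounts 1.6.3. The values deposited by the authors are log2 CPM, log2 of the reads plus 0.5 over a normalized library size. The annotation, the gene filter and the program behind them are not given in the sources used here. Whole reads were recovered from the steps of the values to within 0.01 read.

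The log2 values were tested with limma 3.58.1 (R 4.3.3), with a mean for each of 6 groups, a trended prior and Benjamini-Hochberg adjustment over the 11885 genes that reached 1 CPM in 2 or more libraries; calls use an adjusted p of 0.05, and tests are two-sided. A log2 fold change of a gene with few reads is held back by the 0.5 read added. Levels between genes use exon length from GENCODE M21 (GRCm38). Pair ratios used an exact permutation test in SciPy 1.17.1, and plots were drawn with matplotlib 3.10.9.

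The genes, lists and tests were chosen with earlier results of these data known. Named beside the 10 genes are, for each list, at most 2 called genes with the largest rise and 2 with the largest fall at each time, the 3 genes with the highest r to each of 4 members, and the LPS check genes; genes that this rule names but the text does not are not reported here. Alternatives were other filters, pseudocounts, scalings, priors, replicate blocks, fits of the compared groups alone and fits without each library. Those for counts within a genotype were added after seeing the data.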

Additional observations from a re-analysis of the deposited data

How the results depend on the processing

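Of 315 recomputed counts of members called, 302 stayed within 1.5 times the main count. These include the genotype and interaction comparisons, whose main count was 0 and where a recomputed 0 was taken as unchanged. With quantile normalization 4 members were called in WT at 8 against 0 hr in place of 7 (4291 genes in all in place of 4079). With only the compared groups in the fit, 0 in place of 1 were called in WT at 8 against 4 hr (656 genes in all in place of 1690). For S513A against WT at 0 hr it was 1 in place of 0 (*Abca1*), where that fit called 693 genes in all in place of 4. In fits without single libraries the number called over all genes moved too, so the counts that follow do not describe the members alone. Without single libraries, counts ran from 3 to 8 in WT at 8 against 0 hr (3 without the first WT library at 0 hr, 4 without the second at 8 hr). At 8 against 4 hr they ran from 0 to 1 in WT (0 without the first WT library at 4 hr or either at 8 hr), from 2 to 5 in S513A (5 without either WT library at 4 hr or the second S513A library at 8 hr) and from 2 to 5 on average (5 without the second WT or the first S513A library at 4 hr). At 8 against 0 hr averaged over genotypes they ran from 9 to 10, and every alternative for the genotype and interaction comparisons other than the one named called 0 members.

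Of 840 member log2 fold changes, 16 changed sign, none of them called. *Nr1h2* between 8 and 4 hr was 0.038 with quantile normalization, *Nr1h3* ran from -0.0081 to 0.10 without single libraries, and for S513A against WT over the time points *Nr1h3*, *Pparg* and *Ppard* ran from -0.039 to 0.035, -0.047 to 0.11 and -0.10 to 0.090. Pair ratios left out 1 library at a time as 3 against 4, where the exact test cannot pass 0.05: *Nr1h3* over *Nr1h2* ran from 0.35 to 0.42, 0.36 to 0.54 and -0.017 to 0.16 (4 against 0, 8 against 0 and 8 against 4 hr), *Ppard* over *Pparg* from 2.12 to 2.49, 3.55 to 3.88 and 1.18 to 1.58, and *Abcg1* over *Abca1* from -2.64 to -2.52, -2.45 to -2.23 and 0.15 to 0.37. With a further pseudocount of 1 CPM, *Ppard* over *Pparg* at 8 against 4 hr was 1.21 (exact permutation, adjusted p = 0.0735).

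Replicate numbers did not pair the libraries throughout: replicate differences correlated between groups from -0.75 to 0.76. The S513A groups of 4 and 8 hr went together (0.76), but the other S513A pairs stood at -0.03 and -0.12 and the WT pairs at -0.36 to 0.15. WT at 4 hr ran opposite to S513A at 4 and 8 hr (-0.74 and -0.75), so libraries shared some variation across groups. With the replicate block of genotype and number, 4 members in place of 3 were called at 8 against 4 hr, *Abcg1* being added (0.47, adjusted p = 0.00974); with the block, 7 and 10 were called at 4 and 8 against 0 hr. Quantile normalization shifted the median over all genes by at most 0.09. With 2 libraries a group, genotype intervals were wide, and *Pparg* at 8 hr rests on 40 to 66 reads a library.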

Other observations

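Genes of cholesterol uptake, storage and release moved in both directions after LPS. Of 10 tested, 3 were higher and 6 lower at 4 hr, and 3 higher and 4 lower at 8 hr, beside 29.1% higher and 26.7% lower of all genes tested at 4 hr and 24.5% and 21.6% at 8 hr. The median log2 changes of the list were -0.70 and -0.21. *Stard3*, a sterol carrier of late endosomes, was at 0.92 at 4 hr and 0.79 at 8 hr on the log2 scale (adjusted p = 1.37e-06 and 6.32e-06). *Nceh1* and *Soat1*, a hydrolase and the acyltransferase of cholesteryl esters, fell together at 4 hr and rose again in part. *Nceh1* read 242 to 263 CPM at 0 hr, 40.4 to 47.4 CPM at 4 hr and 83.1 to 92.9 CPM at 8 hr, which is 5.84-fold lower at 4 hr (adjusted p = 3.13e-10) and 2.83-fold lower at 8 hr (adjusted p = 2.18e-08). *Soat1* read 561 to 620.2 CPM at 0 hr, 162 to 210.3 CPM at 4 hr and 310.1 to 358 CPM at 8 hr, which is 3.19-fold lower (adjusted p = 3.87e-08) and 1.80-fold lower (adjusted p = 1.17e-05).

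Relatives of *Abca1* and *Abcg1* were called in both directions as well. The counts given here stand beside 29.1% higher and 26.7% lower of all genes tested at 4 hr, and 24.5% and 21.6% at 8 hr. Of 7 other ABCA and ABCG transporters tested, 1 was higher and 3 lower at 4 hr, and 2 higher and 5 lower at 8 hr, with median log2 changes of -0.78 and -1.04. *Abca7*, a close relative of *Abca1*, was at 0.62 and 0.76 (adjusted p = 0.00500 and 0.00194), and *Abca3* at 0.20 and 0.65 (adjusted p = 0.285 and 0.00413). *Abca9* was at -1.16 and -2.13 (adjusted p = 7.93e-05 and 8.05e-07), and *Abcg3* went from 104 to 130 reads a library at 0 hr to 3 to 12 at 4 hr and 7 to 14 at 8 hr (adjusted p = 2.21e-06 and 2.09e-05). Of 5 other lysophospholipid acyltransferases, 1 was higher and 1 lower at 4 hr, and 1 higher and 2 lower at 8 hr, with median log2 changes of -0.01 and -0.03. *Lpcat2*, an enzyme of platelet-activating factor synthesis, was at 1.55 (SE 0.11, adjusted p = 6.10e-07) and 1.23 (SE 0.11, adjusted p = 5.12e-06), well above the 0.23 and 0.32 of *Lpcat3*. *Lpcat1* was at -1.17 and -0.34 (adjusted p = 4.90e-06 and 0.0258), and *Mboat1* at -0.17 and -0.73 (adjusted p = 0.529 and 0.0183).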
